A study of Mus musculus with 6 samples.

Results

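Genes that break down retinoic acid or carry retinoids were followed in liver, ovary and uterus of mice given fluorene-9-bisphenol (BHPF), a substitute for bisphenol A. The 9 genes were Cyp26a1, Cyp26b1, Cyp26c1, Dhrs3, Lrat, Rbp4, Stra6, Crabp1 and Crabp2, out of 20284 genes that could be named on the array. They were selected on the liver arrays, where Cyp26a1 and Cyp26b1 were higher with BHPF, so all liver differences below are descriptions. Each of the 9 genes had 1 probe in 1 spot, among 55681 probes on the array.

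The mice were immature female CD-1 mice, 24 days old, gavaged daily for 3 days with BHPF (50 mg kg−1 bw) or with peanut oil as the control. The descriptions differ on whether 24 days was the age at the first dose or at collection. RNA from 3 mice was pooled for each tissue and treatment, labelled with Cy3 and put on 1 one-colour Agilent microarray, which gave 6 arrays in all (control liver, control ovary, control uterus, BHPF liver, BHPF ovary and BHPF uterus). With 1 pool and 1 array a group, the spread between animals was not measured and no difference within a tissue could be tested. Whether BHPF had an effect shared by the tissues was not tested. The tissues of a treatment may come from the same mice, so they need not be independent observations. In whole tissue, fewer cells of a type and less RNA per cell cannot be told apart.

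All-trans retinoic acid is made from retinol by way of retinal, and it acts through the nuclear receptors RAR and RXR. The CYP26 enzymes hydroxylate retinoic acid and so end its action, DHRS3 turns retinal back into retinol, and LRAT esterifies retinol for storage, which in the liver takes place mainly in hepatic stellate cells. RBP4 carries retinol from the liver through the blood, STRA6 takes it up into cells, and CRABP1 and CRABP2 bind retinoic acid inside the cell. Cyp26a1, Dhrs3, Lrat, Stra6 and Crabp2 are themselves known to be induced by retinoic acid, and Cyp26a1 is among the most responsive of all such genes.

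Values are levels, the log2 intensity of a probe minus the 75th percentile of its array, and log2 ratios, the BHPF level minus the control level. Levels of different probes are not comparable with each other, so each gene is compared only with itself across arrays. A gene was measured in a tissue when its probe was called well above background by the scanner software on either array, and it was counted as higher or lower from a 2-fold difference. Probes printed in 5 or more spots gave the technical noise of a log2 ratio, an SD of 0.165 in liver, 0.155 in ovary and 0.162 in uterus, and a difference is called beyond the spot noise when it exceeds 1.96 of these SDs. This noise covers neither the animals nor the labelling. It was larger for dim probes, in uterus an SD of 0.212 where both levels were below −2 and 0.146 where both were at −2 or higher.

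Between 61.3% and 74.5% of the probes of an array were well above background. The markers of each tissue were highest on its own arrays. The summed linear level of 12 hepatocyte genes, relative to the 75th percentile, was 439 on the control and 412 on the BHPF liver array, that of 8 granulosa and theca cell genes was 59.5 and 59.4 on the ovary arrays, and that of 8 uterine genes was 20.9 and 21.8 on the uterus arrays. The BHPF uterus array stood apart, with hepatocyte genes summing to 38.7 against 2.28 on the control uterus array. In the table of log2 values that the authors deposited beside the scanner files, the 2 uterus columns are exchanged, each holding the other array's values. The directions given below for the uterus follow the scanner files, and each of them turns if the table's headings are the right ones. The control arrays and the BHPF arrays also occupied different positions of 1 slide, so that treatment and position cannot be told apart.

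**Figure D1:**
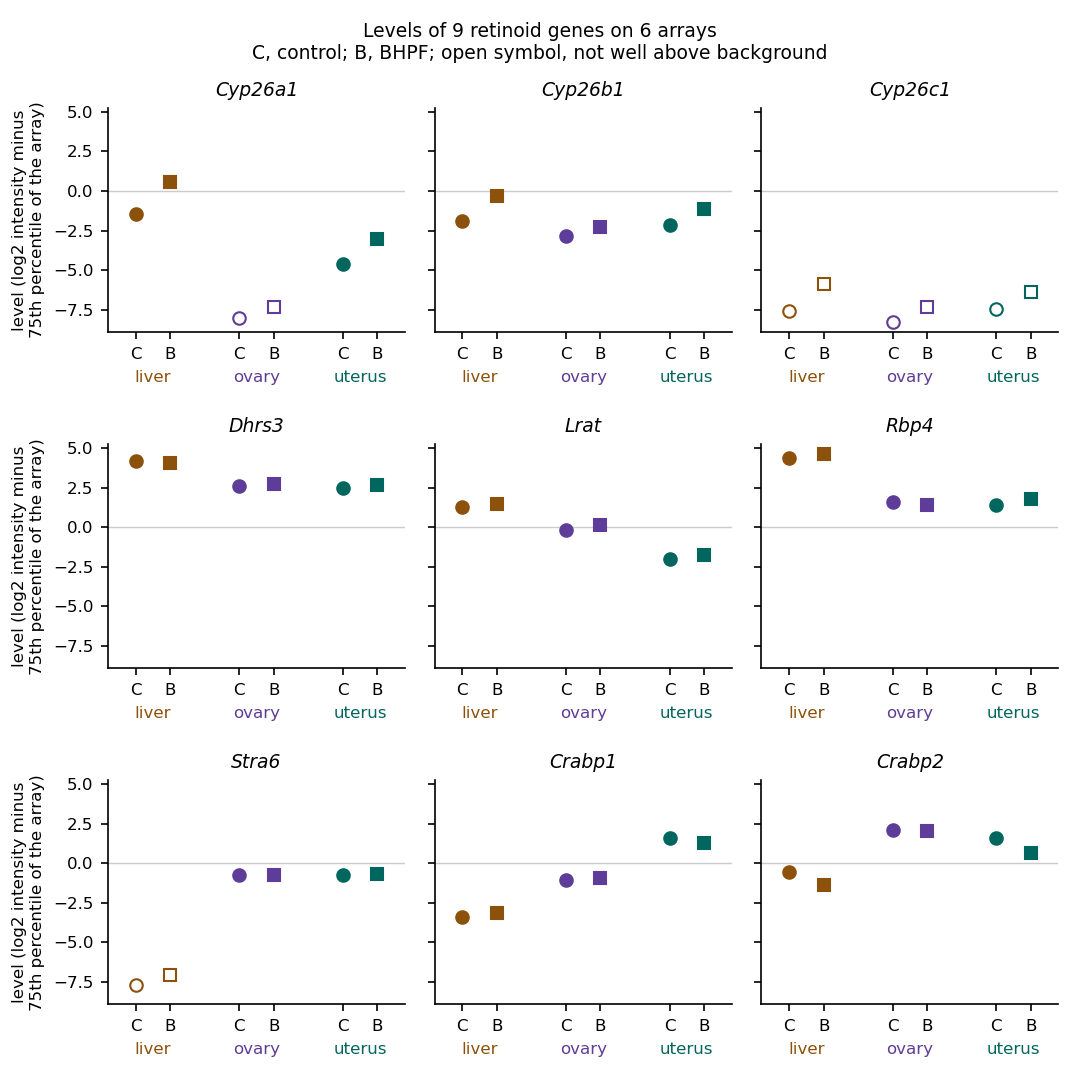
Level of each gene (y axis, log2 intensity minus the 75th percentile of the array) on the 6 arrays (x axis, C for control and B for BHPF, in liver, ovary and uterus). Each point is 1 probe on 1 array of 1 RNA pool; open symbols were not well above background. Levels should be read within a panel only. Cyp26a1 and Cyp26b1 lie higher on the BHPF than on the control array of liver and uterus, Crabp2 lies lower in both, and Cyp26c1 is open throughout.

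Cyp26a1 encodes the main retinoic acid hydroxylase of adult liver. Its level was −1.45 in control liver and 0.56 in BHPF liver, −4.62 in control uterus and −3.04 in BHPF uterus, and its probe was not well above background in either ovary pool (−8.05 and −7.34). BHPF liver thus held the highest level of the 6 arrays, followed by control liver, and both uterus arrays lay below both liver arrays. The log2 ratio in liver was 2.01 (4.02-fold), and 79 of 15530 named genes measured there had a larger one. The log2 ratio in uterus was 1.58 (3.00-fold), 9.80 SDs of the spot noise, and 231 of 16161 named genes had a larger one. Both uterine levels were below −2, where the SD was the larger 0.212, so it is fewer of those SDs. BHPF uterus also carried the liver signal described below.

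The gene lies on chromosome 19 (chr19:37697738-37701536, GRCm38.p6). Its promoter and that of Cyp26b1 are shown because retinoic acid receptors are known to bind a pair of half-sites 5 bases apart, called DR5, upstream of Cyp26a1. Both promoters run from 250 bases before to 50 bases after the start given in RefSeq, 5′ to 3′ on the strand of the gene, at chr19:37697558-37697857 on the plus strand for Cyp26a1 and chr6:84593761-84594060 on the minus strand for Cyp26b1. For both genes the start used lies inside the gene's interval given in the text, not at its end, so part of each window before the start overlaps that interval. Capitals mark the DR5 found in the window.

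Cyp26a1: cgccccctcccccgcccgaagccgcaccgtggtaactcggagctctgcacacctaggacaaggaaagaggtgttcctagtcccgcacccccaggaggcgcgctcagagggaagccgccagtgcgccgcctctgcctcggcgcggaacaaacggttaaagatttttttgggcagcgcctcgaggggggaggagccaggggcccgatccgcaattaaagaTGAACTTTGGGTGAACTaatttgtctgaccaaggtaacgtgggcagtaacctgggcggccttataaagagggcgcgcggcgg

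Cyp26b1: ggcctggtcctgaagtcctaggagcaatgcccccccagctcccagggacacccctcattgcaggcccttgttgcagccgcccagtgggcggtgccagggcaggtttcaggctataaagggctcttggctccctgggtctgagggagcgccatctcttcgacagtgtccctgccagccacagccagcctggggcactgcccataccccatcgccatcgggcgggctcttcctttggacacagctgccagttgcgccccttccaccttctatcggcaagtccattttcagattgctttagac

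The motif was searched on both strands as a pair of half-sites in the same orientation, each of the letters A or G, G, G or T, T, C or G, and A, with 5 bases between them. In Cyp26a1 it read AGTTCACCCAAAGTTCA on the strand opposite to the gene, 32 to 16 bases before the start used. This position lies inside the gene's interval given above. It was present in 106 of 32851 mouse promoters of this length (0.323%) and in 1 of the 14 promoters listed for 8 of the 9 genes. Spacings of 1 base (DR1, 0.609% of all promoters) and 2 bases (DR2, 0.472%) were found in none of the 14. The DR5 overlapped neither of these motifs. Letters in a window are a description and give no binding.

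Cyp26b1, on chromosome 6 (chr6:84571414-84593908), encodes the hydroxylase that is known for clearing retinoic acid in embryonic gonads and other tissues outside the liver. Its level was −1.89 in control and −0.34 in BHPF liver, −2.86 in control and −2.25 in BHPF ovary, and −2.12 in control and −1.13 in BHPF uterus. It was the one CYP26 gene above background on every array, and in each tissue the BHPF array was the higher. The log2 ratio was 1.55 in liver (2.92-fold), 0.61 in ovary (1.53-fold) and 0.996 in uterus (1.99-fold).

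The ratio of Cyp26b1 was 3.93 SDs of the spot noise in ovary and 6.16 SDs in uterus. Both ovarian levels were below −2, where the SD was the larger 0.196, so the ovary value is fewer of those SDs. In ovary 227 of 16863 named genes had a larger ratio, and in uterus 368 of 16161 did. The uterine ratio lay just under the 2-fold limit. The ratio in uterus was 0.38 above that in ovary, within the spot noise of such a difference (SD 0.224). Whether the tissues differ between animals was not tested.

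Cyp26c1, which encodes the third CYP26 enzyme and is known mainly from the embryo, lies 4417 bases from Cyp26a1 on chromosome 19. Its probe was not well above background on any of the 6 arrays, with levels between −8.28 and −5.88, and no ratio is given for it.

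Dhrs3, the retinal reductase on chromosome 4 (chr4:144892534-144928209), stood at 4.15 in control and 4.06 in BHPF liver, 2.61 in control and 2.71 in BHPF ovary, and 2.49 in control and 2.65 in BHPF uterus. The log2 ratios were −0.09 in liver, 0.10 in ovary and 0.16 in uterus. The 2 arrays of a tissue were within the spot noise in all 3 tissues, and the sign in liver changed under normexp background correction. Both liver arrays lay above all 4 arrays of the reproductive tissues.

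Lrat, on chromosome 3 (chr3:82892582-82903974), had a level of 1.29 in control and 1.44 in BHPF liver, −0.19 in control and 0.15 in BHPF ovary, and −1.99 in control and −1.76 in BHPF uterus. The tissues kept the order liver, ovary, uterus under both treatments, with no overlap. The BHPF array was the higher of each pair by a log2 ratio of 0.15 in liver, 0.34 in ovary and 0.23 in uterus. Of these only the ovary value was beyond the spot noise (2.16 SDs), and with normexp it was 0.19, within it. The sign in liver changed under scaling to the 50th percentile. Markers of hepatic stellate cells, the storage cells in which liver Lrat is mainly found, summed to 18.6 in control and 17.9 in BHPF liver; 9 of the 10 were measured and none differed by 2-fold.

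Rbp4, the blood carrier of retinol made by hepatocytes, lies on chromosome 19 (chr19:38116620-38125321), 415083 bases from Cyp26a1. Its level was 4.36 in control and 4.60 in BHPF liver, 1.60 in control and 1.39 in BHPF ovary, and 1.41 in control and 1.81 in BHPF uterus. The log2 ratio was 0.24 in liver and −0.21 in ovary, both within the spot noise, and the sign changed under scaling to the 50th percentile in liver and under normexp in ovary. The ratio of 0.40 in uterus was 2.49 SDs of the spot noise. It was 0.30, within the noise, once the median share of the liver signal described below for BHPF uterus was subtracted.

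Stra6, the receptor for RBP4, lies on chromosome 9 (chr9:58063793-58154004). It was not well above background in liver (−7.69 in control and −7.08 in BHPF liver), and stood at −0.72 in control and −0.74 in BHPF ovary and at −0.74 in control and −0.69 in BHPF uterus. The 4 arrays of ovary and uterus thus lay within 0.05 of each other. The log2 ratios of −0.01 in ovary and 0.05 in uterus were within the spot noise, and the sign in uterus changed under some scalings.

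Crabp2, on chromosome 3 (chr3:87948693-87953372), encodes the protein that brings retinoic acid to its receptors. Its level was −0.54 in control and −1.39 in BHPF liver, 2.11 in control and 2.05 in BHPF ovary, and 1.58 in control and 0.63 in BHPF uterus. It was lower with BHPF by 1.80-fold in liver (log2 ratio −0.85) and by 1.92-fold in uterus (log2 ratio −0.94), both short of 2-fold. With scaling to the 50th percentile both passed 2-fold, at −1.16 and −1.02. The uterine value was 5.84 SDs of the spot noise, and 148 of 16161 named genes had a smaller ratio. In ovary the log2 ratio was −0.07, within the spot noise.

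The uterine ratio of Crabp2 was 0.88 below that in ovary (SD 0.224). In liver and uterus its ratio had the opposite sign to those of Cyp26a1 and Cyp26b1. On the same arrays the adipocyte markers summed to 4.95 in control and 2.04 in BHPF uterus, with 3 of the 6 measured at least 2-fold lower, and Lep and Plin1 were above background on neither array. Their part in the uterine values was not tested.

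Crabp1, on chromosome 9 (chr9:54764748-54773110), encodes the other cellular retinoic acid-binding protein. Its level was −3.39 in control and −3.15 in BHPF liver, −1.04 in control and −0.96 in BHPF ovary, and 1.57 in control and 1.26 in BHPF uterus. The tissues kept the order uterus, ovary, liver, the reverse of that of Lrat. The log2 ratios were 0.25 in liver, 0.08 in ovary and −0.31 in uterus, all within the spot noise. The uterine value was 1.90 SDs, and it would pass with the smaller SD of 0.146 for brighter probes. The signs in liver and ovary changed under other scalings or background corrections.

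**Figure D2:**
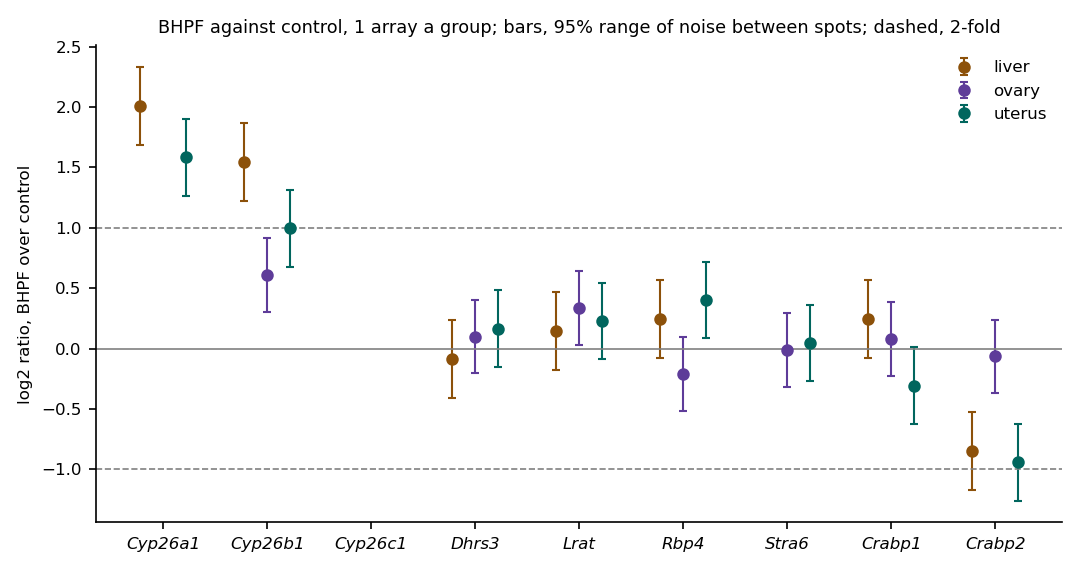
The y axis gives the log2 ratio of BHPF over control for each gene (x axis) in liver, ovary and uterus, where measured. Points are single pairs of arrays, and bars span 1.96 SDs of the noise between spots on either side, which leaves out the spread between animals. Dashed lines mark 2-fold; Cyp26a1 in liver and uterus and Cyp26b1 in liver lie above the upper line, and Cyp26b1 in uterus lies just under it at 0.996.

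Counted together, 2 of the 7 genes measured in liver were at least 2-fold higher with BHPF, Cyp26a1 and Cyp26b1, and none was 2-fold lower. Among all 15530 named genes measured in liver, 4.74% differed by 2-fold (3.2% higher and 1.54% lower). As the choice of genes rested on this comparison, nothing is read from the count. The next gene by size, Crabp2, did not reach 2-fold, at −0.85, but did with scaling to the 50th percentile, at −1.16. The median log2 ratio of the 7 genes was 0.24, beside 0 over all named genes. Scaling moved the split of the liver calls, from 497 higher and 239 lower to 256 and 549 with the 50th percentile, which shifted the median of all named genes to −0.30, and to 251 and 396 with quantile normalization.

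The neutrophil markers were lower on the BHPF liver array. Their summed level was 90.3 in control and 39.7 in BHPF liver, 8 of the 10 were at least 2-fold lower and none was higher. S100a9, among the most abundant proteins of neutrophils, stood at 3.96 in control and 1.69 in BHPF liver, and Lcn2, which encodes a granule protein, at 5.19 and 4.01. Csf3r, the receptor for granulocyte colony-stimulating factor, stood at 4.28 and 4.12. Elane and Mpo were not well above background in BHPF liver. Hepatocyte markers did not differ by 2-fold in any of 12 cases. The Kupffer cell markers summed to 68.8 and 62.3. Of these 8 markers 6 had a ratio below 0, and 1, Adgre1, was at least 2-fold lower (log2 ratio −1.08). The part of these cells in the liver values of the retinoid genes was not tested.

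In ovary none of the 7 genes measured was 2-fold higher or lower, where 1.09% of 16863 named genes were (0.474% higher and 0.617% lower). The log2 ratios ran from −0.21 for Rbp4 to 0.61 for Cyp26b1, with a median of 0.08 beside 0.01 over all named genes. Cyp26b1 and Lrat were the ovarian values beyond the spot noise, Lrat not so with normexp.

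In uterus 1 of the 8 genes measured, Cyp26a1, was at least 2-fold higher and none was 2-fold lower, where 3.09% of 16161 named genes differed by 2-fold (2.27% higher and 0.823% lower). The log2 ratios ran from −0.94 for Crabp2 to 1.58 for Cyp26a1, with a median of 0.20 beside 0.00 over all named genes. Cyp26a1, Cyp26b1, Rbp4 and Crabp2 were beyond the spot noise, Rbp4 not so once the median share of the liver signal described below was subtracted. With the authors' table as headed, and the background calls of the scanner files, 89 of 16160 named genes were 2-fold higher and 181 lower in uterus. There the calls of each uterus array met the values of the other, which set many bounds to 0. These counts are therefore not those of turned headings. With the columns exchanged, so that calls and values came from the same array, 367 were higher and 133 lower.

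On the uterus arrays all 12 hepatocyte markers were at least 2-fold higher in BHPF than in control uterus. Alb, the main protein of blood plasma, stood at −0.92 in control and 3.36 in BHPF uterus, Apoa2 at −2.02 and 2.23, and Ahsg at −0.50 and 2.84. Fga was not well above background in control uterus. The size of this signal was measured on 263 probes at least 64-fold brighter in control liver than in both other control tissues and standing at 3 or higher in control liver. Their linear excess in BHPF uterus over control uterus had a median of 0.998% of the BHPF liver level (quartiles 0.568% and 2.06%), against 0.013% in ovary.

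The same quantity was 5.49% for Cyp26a1, above that of 92.4% of the 263 probes, and 28.9% for Cyp26b1, above that of every one of them. Over all 466 liver-restricted probes, dimmer ones included, the highest value was 32.0%. It was 3.52% for Rbp4, 4.04% for Dhrs3 and 1.60% for Lrat. Relative to control liver, in which Cyp26a1 was lower, the value for Cyp26a1 was 22.1% and that for Cyp26b1 was 84.6%. Unlike the 263 probes, Cyp26b1 stood about as high in control uterus as in control liver (linear levels 0.230 and 0.270). For such genes the quantity follows any uterine change. Relative to BHPF liver it was 271% for Stra6, at a log2 ratio of 0.05, −504% for Crabp1 and −376% for Crabp2. The part of liver signal in the uterine value of Cyp26b1 was not tested. When the median share of the BHPF liver level was subtracted from the BHPF uterus array, the log2 ratio in uterus was 1.40 for Cyp26a1, 0.97 for Cyp26b1, 0.30 for Rbp4, 0.13 for Dhrs3, 0.09 for Lrat and −0.95 for Crabp2. The 9 genes then gave the same count, 1 at least 2-fold higher. This subtraction was chosen after seeing the data.

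**Figure D3:**
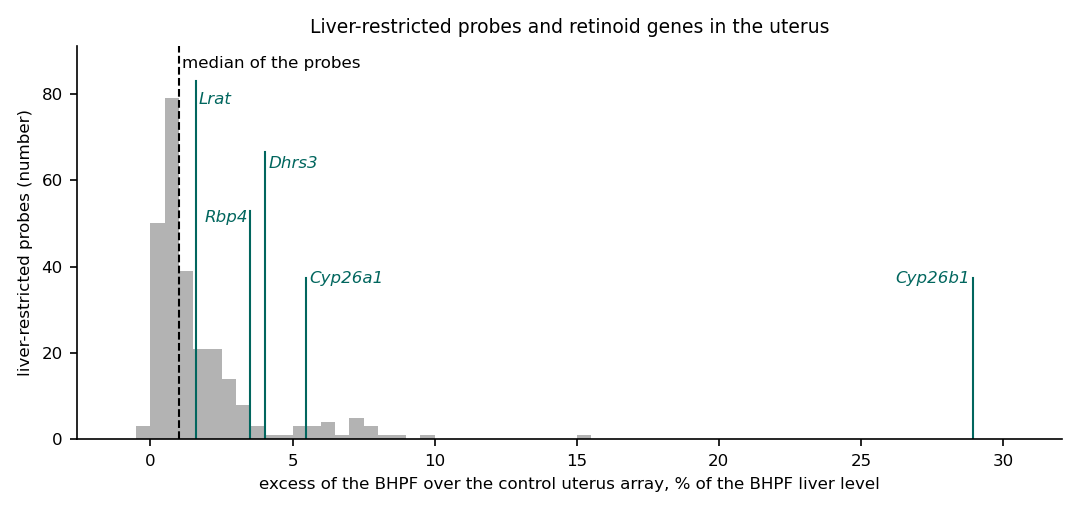
Histogram of the excess of the BHPF uterus over the control uterus array, in % of the BHPF liver level (x axis), for 263 liver-restricted probes (y axis, number of probes). Green lines mark 5 retinoid genes; the dashed line is the median of the probes, 0.998%. Lrat, Rbp4, Dhrs3 and Cyp26a1 lie within the range of the probes, and Cyp26b1 lies beyond that of these 263 at 28.9%. None of the 5 genes was as restricted to liver as these probes (64-fold), so their positions also take in any uterine change of their own. Unlike these probes, Cyp26b1 did not differ between control liver and control uterus beyond the spot noise.

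Among control tissues 7 of the 9 genes separated liver from both reproductive tissues by 2-fold. Cyp26b1 did not, and Cyp26c1 was not measured. Between control liver and control ovary 7 of the 8 genes measured were at least 2-fold apart, as were 44.3% of 17189 named genes, and between control liver and control uterus 7 of 8 were, as were 42.6% of 16620. Between control ovary and control uterus it was 3 of 8, beside 24.7% of 17159. Cyp26a1, Dhrs3, Lrat and Rbp4 were higher in liver than in both others, and Stra6, Crabp1 and Crabp2 were lower. Over all named genes the split between higher and lower in liver depended on the scaling, from 3706 and 3903 against ovary to 5858 and 2796 with the 50th percentile and 2625 and 5137 with the 75th percentile over probes above background on all arrays. The 50th percentile moved the median log2 ratio of all named genes to 0.47 against ovary and 0.59 against uterus, from 0.01 and 0.02. The direction of these 7 genes was the same under every alternative run.

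Cyp26a1 in control liver was at least 29.5-fold higher than in control ovary, a bound because the ovary probe was below background (log2 bound 4.88, and 4.15 at the lowest over the alternatives), and 9.05-fold higher than in control uterus. Rbp4 in control liver was 6.79-fold higher than in ovary and 7.74-fold higher than in uterus. Lrat in control liver was 2.80-fold higher than in ovary and 9.72-fold higher than in uterus. The corresponding values for Dhrs3 were 2.91-fold and 3.17-fold, log2 differences of 1.54 and 1.67 that fell under 2-fold in at least 1 alternative, to 0.60 and 0.89. With the table's uterus headings in place of the scanner files', the log2 difference between control liver and control uterus was 1.59 for Cyp26a1 rather than 3.18, −1.18 for Crabp2 rather than −2.12, and −0.76 for Cyp26b1 rather than 0.23. Ovary and uterus did not differ beyond the spot noise for Dhrs3 (1.09-fold) and Rbp4 (1.14-fold).

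Stra6 was at least 29.8-fold higher in control ovary and at least 29.4-fold higher in control uterus than in control liver, again as bounds. Its level did not differ between ovary and uterus beyond the spot noise. Crabp1 was 31.2-fold higher in uterus and 5.13-fold higher in ovary than in liver, with uterus 6.09-fold above ovary. Crabp2 was highest in ovary, 6.31-fold above liver, with uterus 4.35-fold above liver. Ovary exceeded uterus by 1.45-fold for Crabp2. Cyp26b1 varied least, with liver 1.95-fold above ovary, uterus 1.66-fold above ovary, and liver and uterus within the spot noise.

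The rest of the retinoid pathway was read from a list of 50 other genes in 6 roles. In liver 46 of them were measured and none differed by 2-fold in either direction, where 4.74% of all named genes did, with a median log2 ratio of 0.06 beside 0 over all named genes. In ovary 48 were measured, again with none past 2-fold, where 1.09% of all named genes were, and a median of 0.05 beside 0.01. In uterus 46 were measured, 4 were at least 2-fold higher and none lower, where 2.27% and 0.823% of all named genes were, with a median of 0.05 beside 0.00.

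Of the genes listed as oxidoreductases and retinal dehydrogenases, none differed by 2-fold on the liver arrays. Log2 ratios ran from −0.10 to 0.86 for 16 oxidoreductases and from 0.0049 to 0.62 for 5 genes listed as retinal dehydrogenases. Of the retinol and retinal oxidoreductases, Rdh7 stood at 5.18 in control and 5.08 in BHPF liver, Adh1 at 4.84 and 5.05, and Rdh9 at 3.48 and 3.45. In the list of retinal dehydrogenases Aldh1a1, whose enzyme catalyses the last step to retinoic acid, stood at 4.48 on both liver arrays. Aldh1a7 and Aox1, also in that list, stood at 2.75 and 2.81 and at 1.20 and 1.59. In ovary Aldh1a1 stood at 3.53 and 3.57 and Aldh1a2, the enzyme that is known to serve embryonic tissues, at 2.23 and 2.30. None of these values differed by 2-fold between treatments.

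For 7 genes of retinyl ester turnover the log2 ratios in liver ran from −0.09 to 0.21, and for 6 other carriers from −0.30 to 0.86. In liver Ces1d, a carboxylesterase, stood at 4.45 in control and 4.52 in BHPF, and Ttr, transthyretin, the partner of RBP4 in blood, at 5.03 and 5.08. Fabp5, a fatty acid-binding protein that also binds retinoic acid, stood at 4.52 on both liver arrays. Stra6l, a membrane receptor for RBP4 known from liver, stood at 3.57 and 3.27. In ovary Fabp5 stood at 2.93 and 3.14.

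Among the receptors, Rxrb stood at 2.60 in control and 2.55 in BHPF liver, 1.87 and 2.05 in ovary, and 2.12 and 2.22 in uterus. Rara had log2 ratios of −0.47 in liver, −0.18 in ovary and −0.08 in uterus. Of the receptor partners, Ncoa2, a co-activator, had log2 ratios of −0.20 in liver, −0.02 in ovary and 0.16 in uterus. No receptor or partner reached 2-fold as a gene in any tissue, although 1 of the 2 probes of Rxrg in liver did, at −1.05, with the other at −0.05.

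The 4 other retinoid genes at least 2-fold higher in BHPF uterus were Ttr, Rdh7, Adh4 and Aldh1a7. Ttr stood at −1.33 in control and 2.46 in BHPF uterus (log2 ratio 3.78), Rdh7 at −3.42 and −0.20 (3.22) and Aldh1a7 at −4.93 and −3.06 (1.87). Adh4 was above background in BHPF uterus alone, and its bound was 2.05. On the liver arrays Ttr, Rdh7, Adh4 and Aldh1a7 stood at 2.75 or higher, and the hepatocyte markers moved with them on the BHPF uterus array as given above. With the median liver share subtracted, 2 of the list genes were 2-fold higher and 2 were 2-fold lower, of 44 measured.

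Genes known to be induced by retinoic acid were taken as a further list of 15, Rarb among them. In liver 9 were measured, in ovary 10 and in uterus 11, and none differed by 2-fold in any tissue, beside 4.74%, 1.09% and 3.09% of all named genes. The median log2 ratio was 0.04 in liver, 0.05 in ovary and 0.18 in uterus. Rarb, the receptor gene that is itself a classical target of retinoic acid, had a log2 ratio of −0.04 in liver, 0.21 in ovary and 0.11 in uterus. Rarres1 stood at 2.63 in control and 2.18 in BHPF liver, Tgm2, tissue transglutaminase, at 3.76 and 3.44, and Rarres2, which encodes chemerin, at 5.05 and 5.10.

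**Figure D4:**
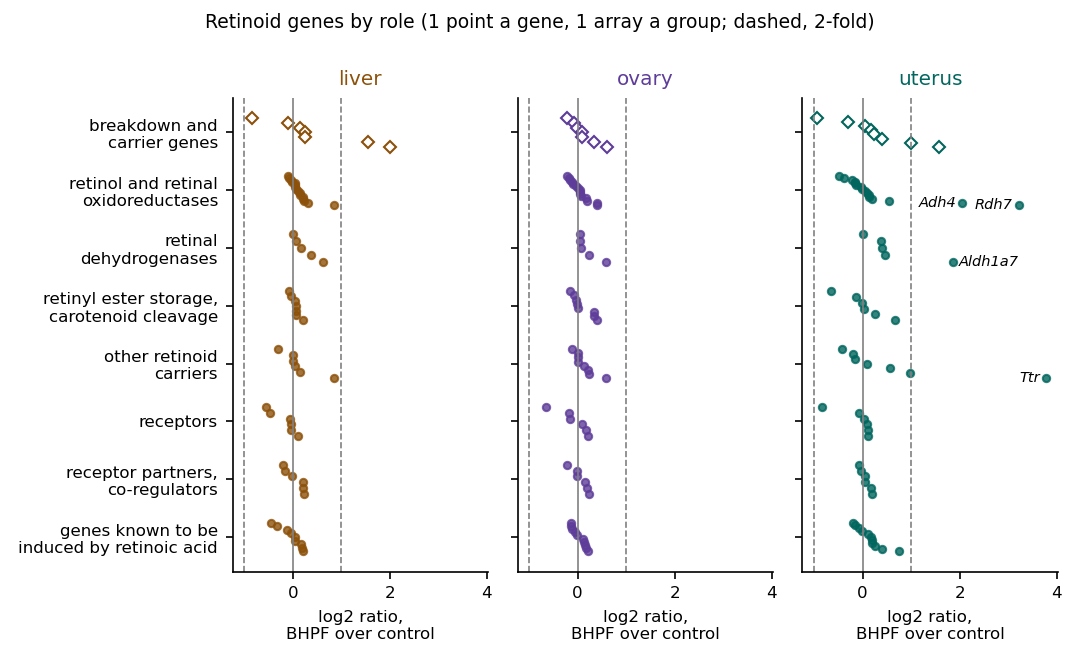
Log2 ratio of BHPF over control (x axis) in liver, ovary and uterus for the 9 breakdown and carrier genes (open diamonds) and for other retinoid genes by role (filled circles, 1 a gene). Dashed lines mark 2-fold, and vertical positions within a role are spread for legibility only. In liver and ovary every filled circle lies between the dashed lines; in uterus Ttr, Rdh7, Adh4 and Aldh1a7 lie beyond the upper one.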

How the data were processed

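RNA pools from liver, ovary and uterus were measured on 6 one-colour arrays. The scanner files hold the intensity of each spot, which the authors extracted with Agilent Feature Extraction (version 9.1 per the labels, 11.5.1.1 per the file headers), background-subtracted and not normalized between arrays. The deposited table of log2 values equals the log2 of these intensities minus a constant per array, checked on probes in 1 spot (100% within 0.001); its uterus columns are exchanged against the scanner files. Scanner files were used, grouped by their labels.

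Control and outlier spots were left out, the spots of a probe were averaged on the log2 scale, and each array was shifted by its 75th percentile over 55681 probes. A probe above background on 1 array only was set against the higher of its own level and the lowest level above background on the other array, which gives a bound. Probes were named through their accession in a RefSeq table (GRCm38.p6), which named 26762 probes as 20284 genes, and probes of a gene were averaged. The array design names another build, so no probe coordinates are given. The number of arrays limits the precision.

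The genes and lists were chosen with earlier results of these data known. Besides the 9 genes, the text names list genes at least 2-fold apart, up to 3 of the highest levels of each role or marker list, and for each gene the 3 with the most similar pattern (not all are reported here); Rarb, Rarres1, Rarres2, Tgm2, Rxrg and the markers at or below background were named after their values were seen. Alternatives were normexp correction (offset 50), other scalings, the authors' table, no filter on dim probes, own values for bounds and the brightest probe of a gene. Python 3.11.15, pandas 2.3.3, numpy 2.4.6, R 4.3.3 and limma 3.58.1 were used, and the ratios were tested on simulated data.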

Additional observations from a re-analysis of the deposited data

Results flagged for a closer look

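For Rbp4 the log2 ratio of BHPF over control had opposite signs in ovary (−0.21) and in the other tissues, which lay 0.45 above it in liver and 0.61 above it in uterus. For Crabp1 the ratio in liver (0.25) lay 0.56 above that in uterus (−0.31), again with opposite signs. These differences exceeded 1.96 SDs of the spot noise of a difference of ratios (0.227, 0.224 and 0.231), but the liver values belong to the comparison on which the genes were chosen, with 1 array a group nothing was tested between animals, and the liver sign of both genes and the ovary sign of Rbp4 changed under other scalings or background corrections.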

How the results depend on the processing

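No paired analysis was possible, because each group was 1 array of 1 pool. A fit over the 3 tissues with tissue as a block was not run. The count of genes at least 2-fold apart in uterus rose from 1 to 2 with the 50th percentile (1 higher, with Crabp2 lower at −1.02), to 2 with the 75th percentile over probes above background on all 6 arrays (Cyp26b1 at 1.01) and to 2 without a filter on dim probes (Cyp26c1 at 1.08, below background). The median of the 50 other retinoid genes in liver, 0.06, became 0.10 with normexp, −0.25 with the 50th percentile (all named genes −0.30) and 0.011 with quantile normalization. In uterus it went from 0.05 to −0.022 with the 50th percentile and −0.040 with the authors' table as headed, where calls and values came from different uterus arrays. It was 0.021 with subtraction of the median share of the BHPF liver level and 0.018 with that of the control liver level. The log2 ratio of Cyp26a1 in uterus was −1.58 with the table as headed, and 1.58 once its uterus columns were exchanged. Apart from the table as headed, its range was 1.15 to 1.59, beside 1.60 to 2.01 for Cyp26a1 in liver, 1.23 to 1.55 for Cyp26b1 in liver, 0.59 to 0.67 in ovary and 0.92 to 1.01 in uterus, and −1.16 to −0.85 for Crabp2 in liver. With the median liver share of the BHPF liver level subtracted, 222 named genes were 2-fold higher and 292 lower in uterus, against 367 and 133. Among the alternative values of single genes, other than those added after seeing the data, 157 moved by less than the SD of the spot noise and 18 by more, changes of sign under 2-fold included, and Cyp26a1 in uterus was the one value past 2-fold that turned. The 157 include values that could not move. With 1 probe a gene, above background on both arrays, the dim-probe filter, own values for bounds and the brightest probe left every ratio as it was. In liver and ovary the authors' table differed only by a constant per array. Of the 9 genes, 5 of 6 measured (authors' table) to 8 of 8 (50th percentile) were 2-fold apart between control liver and ovary. Cyp26a1 and Stra6 had no such value in the table. Of all named genes, 3375 were higher and 2842 lower of 15018 in the table, and 5858 and 2796 of 17189 with the 50th percentile. Between liver and uterus the count was 6 of 8 (quantile normalization, 3255 and 3274 of 16620) to 7 of 8. Between ovary and uterus it was 2 of 7 (table exchanged, 1371 and 2017 of 15719) to 4 of 7 (as headed, 1408 and 2145, with uterus calls and values from different arrays). Apart from the genes without a value, the cause of these changes was not tested. Dim probes limit the reading of Cyp26c1 on all arrays, of Cyp26a1 in ovary and of Stra6 in liver.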

Other observations

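The genes whose pattern over the 6 arrays was most like that of each of the 9 genes were ranked by the root mean square difference of levels after each gene's own mean was subtracted, among 16806 genes. This is a description, since all points share the same 6 arrays. For Dhrs3 the nearest were Glrx5 (0.05), a mitochondrial glutaredoxin, Tmem160 and Myo5b. For Rbp4 they were 1810019D21Rik (0.11), Narf and Cat, which encodes catalase, and for Lrat they were Lpin2 (0.14), N4bp2l1 and Ero1b. For Stra6 they were Sertad4 (0.11), Kcnh2 and Tmeff1, each above background on the same 4 arrays as Stra6.

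For Crabp1 the nearest were Fbxo32 (0.15) and Nacad, and for Crabp2 they were Lpcat4 (0.20), Obi1 and Slc41a1, with Lpcat4 above background on 3 of the 6 arrays. For Cyp26a1 they were Inmt (0.64), Ces2c and Car8. Inmt, an N-methyltransferase, stood at 4.64 in control and 4.87 in BHPF liver. For Cyp26b1 they were Olfr1184 (0.26), Lrrc10 and Fgf23, each with every probe above background on 1 of the 6 arrays only.

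In ovary 5 of the 8 neutrophil markers measured were at least 2-fold lower, with summed levels of 15.7 in control and 12.2 in BHPF ovary. In uterus 3 of the 9 measured were at least 2-fold lower, with sums of 50.3 and 40.6, while Csf3r and Ltf had log2 ratios of 0.03 and 0.04. In ovary the adipocyte markers summed to 3.75 and 4.41, with 2 of the 7 measured at least 2-fold higher.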
